A study of Mus musculus with 8 samples.

Results

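The transcription factors described here are 8 genes that mark or build glutamatergic projection neurons of the cerebral cortex and hippocampus, out of 18939 genes with a count in at least 1 library: Neurod6, Neurod2, Neurod1, Bhlhe22, Zfp238 (now Zbtb18), Tbr1, Emx1 and Fezf2. They were read from the counts by gene symbol, and the list was selected on measured values, the levels of these genes in the morphine and control libraries, so their differences between the groups are given as a description, with no *P* value, and calls of members in that contrast are listed and support nothing. Translating ribosome affinity purification (TRAP-Seq) was used to collect RNA bound to EGFP-tagged ribosomes of mu-opioid receptor (MOR) neurons from the paraventricular nucleus of the thalamus (PVT). The morphine group (4 libraries) drank morphine, raised to 0.5 mg/ml, in 0.2% saccharin for 11 days, and the control group (4 libraries) drank 0.2% saccharin alone. Each group had 2 male libraries (control replicates 1 and 2, morphine replicates 3 and 4) and 2 female libraries (control replicates 5 and 6, morphine replicates 7 and 8). The paper states that each library pooled tissue of 2 mice, either both male or both female.

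All mice of both groups carried the same alleles (OPRM1cre X EGFP-L10a) on a C57Bl/6J background and were 8 to 12 weeks old at the start. Cre was expressed from the Oprm1 gene and switched on the EGFP-L10a ribosomal protein from the Rosa26 locus. The tagged ribosomes therefore mark cells in which Oprm1 was active at any time, and because the PVT was taken by gross dissection the tissue can hold MOR cells of neighbouring structures. In bulk samples of this kind, more cells of a type and more RNA per cell cannot be told apart.

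Neurod1, Neurod2 and Neurod6 are proneural basic helix-loop-helix (bHLH) activators that act in turn as cortical neurons are born, differentiate and extend axons. They bind as dimers with E proteins to short DNA elements called E-boxes. Bhlhe22 is a related bHLH factor that acts as a repressor, and Zfp238 is a zinc finger repressor that restrains proneural genes. Tbr1 (a T-box factor of early-born and deep-layer neurons), Emx1 (a homeobox factor of the dorsal telencephalon) and Fezf2 (a zinc finger factor that specifies subcortical projection neurons) give regional and layer identity. Several members are also used outside the cortex, including in hippocampal granule and pyramidal cells, so none of them alone defines a cortical cell.

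The promoter windows of the members are shown because most of these factors bind E-boxes themselves, and the windows can be read beside the values that follow. RefSeq (GRCm38.p6) windows of 300 bases, from 250 before to 50 after a transcript start, were at hand for 7 of 8 members. The 3 with a window whose counts did not overlap between the groups are printed first, followed by Tbr1, whose highest library was a control. Capitals mark each E-box, CANNTG, which reads the same on both strands as a pattern. Zfp238 has 5 windows, and the one printed starts nearest to the start of the counted transcript, 358 bases away. It lies at chr1:177444403-177444702 on the plus strand, Neurod6 at chr6:55681214-55681513 and Neurod2 at chr11:98329596-98329895 on the minus strand, and Tbr1 at chr2:61804203-61804502 on the plus strand.
Zfp238: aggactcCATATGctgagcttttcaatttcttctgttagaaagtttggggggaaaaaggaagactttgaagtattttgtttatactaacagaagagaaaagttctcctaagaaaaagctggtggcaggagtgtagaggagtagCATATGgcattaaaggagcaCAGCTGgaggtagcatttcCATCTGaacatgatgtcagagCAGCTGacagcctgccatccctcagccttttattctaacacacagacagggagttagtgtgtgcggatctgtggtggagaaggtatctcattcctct
Neurod6: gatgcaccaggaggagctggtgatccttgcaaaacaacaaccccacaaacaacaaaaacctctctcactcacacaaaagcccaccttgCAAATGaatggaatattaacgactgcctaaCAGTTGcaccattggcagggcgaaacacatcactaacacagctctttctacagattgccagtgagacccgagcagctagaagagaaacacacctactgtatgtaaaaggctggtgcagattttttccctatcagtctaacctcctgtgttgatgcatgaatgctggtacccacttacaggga
Neurod2: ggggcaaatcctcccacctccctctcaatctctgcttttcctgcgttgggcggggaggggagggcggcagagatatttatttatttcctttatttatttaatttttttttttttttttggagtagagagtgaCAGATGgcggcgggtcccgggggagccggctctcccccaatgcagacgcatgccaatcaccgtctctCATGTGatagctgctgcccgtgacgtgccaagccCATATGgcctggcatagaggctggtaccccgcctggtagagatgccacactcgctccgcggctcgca
Tbr1: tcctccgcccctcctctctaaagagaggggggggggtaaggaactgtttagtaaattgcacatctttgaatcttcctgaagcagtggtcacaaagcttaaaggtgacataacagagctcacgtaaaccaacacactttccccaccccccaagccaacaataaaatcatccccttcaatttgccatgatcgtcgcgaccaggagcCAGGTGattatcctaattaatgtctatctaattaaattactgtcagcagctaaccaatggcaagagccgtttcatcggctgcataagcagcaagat

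The printed Zfp238 window held 5 E-boxes, a number reached by 2.1% of the 32851 windows of all genes. It held the most of the Zfp238 windows, as the remaining ones held 1, 4, 1 and 4, and 4 was reached by 6.49% of all windows. The Neurod2 window held 3, reached by 17.6%, and the Neurod6 window held 2, reached by 39.6%. A single E-box was found in the Tbr1, Emx1 and Neurod1 windows and 0 in that of Fezf2, and 72.3% of all windows held at least 1. Among the E-boxes, CAGATG, a form favoured by NeuroD factors and searched on both strands, occurred once each in the printed Zfp238 and Neurod2 windows and in 17.2% of all windows. CATATG, a form bound by Bhlhe22, occurred at 2 places in the Zfp238 window and at 1 place each in those of Neurod2 and Neurod1, and in 3.92% of all windows. ACATCTG, the core of the element bound by Zfp238 itself, holds the reverse complement of CAGATG and so overlaps the NeuroD form. It was in 0 of the 4 printed windows, in 2 of the other Zfp238 windows, and in 4.43% of all windows. A match describes the letters of the window and is not a bound site.

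The 8 libraries held 31151106 to 47582947 counts and 16920 to 17441 genes with a count. Levels are given as CPM, counts scaled to the TMM-normalised library size. The thalamic label was met by its markers in both groups: the thalamic factor Tcf7l2 stood at 1101 ± 202 CPM in the control group and 947 ± 291 CPM in the morphine group (SD, n = 4 each). Oprm1 lay between 16.8 and 32.3 CPM in the control libraries and between 14.0 and 18.4 CPM in the morphine libraries. Control replicate 5 is labelled female but held 49.5 CPM of 4 Y-linked genes, against 128 to 171 CPM in the male libraries and at most 0.0649 CPM in the other female libraries. Control replicate 6 and morphine replicate 7 stood apart on the second principal component. The fold changes below are therefore also given without control replicate 5 or 6.

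The genes lie on 6 chromosomes (RefSeq, GRCm38.p6): Zfp238 at chr1:177442351-177450764, Neurod1 at chr2:79452637-79456636, Tbr1 at chr2:61802863-61814114, Bhlhe22 at chr3:18054325-18057514, Neurod6 at chr6:55677818-55681263, Emx1 at chr6:85187931-85204463, Neurod2 at chr11:98325415-98329645 and Fezf2 at chr14:12338992-12346803. Expressed per transcript length, Zfp238 was by far the most abundant member, with 44.6 ± 6.23 RPKM (CPM per kilobase of transcript, mean ± SD, n = 4) in the control group and 91.5 ± 7.60 in the morphine group. In the control group it was followed by Bhlhe22 (7.19 RPKM), Tbr1 (5.79), Neurod2 (4.71), Neurod1 (4.46), Neurod6 (2.38), Fezf2 (1.50) and Emx1 (0.752). From Bhlhe22 downwards, neighbours in this order differed by less than the SD of at least 1 of them. In the morphine group the order was Zfp238, Neurod2 (24.4 RPKM), Neurod6 (23.6), Bhlhe22 (15.7), Tbr1 (9.92), Neurod1 (6.05), Fezf2 (5.00) and Emx1 (2.43). Neurod2 and Neurod6 there differed by less than their SDs of 6.06 and 7.67 RPKM.

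Of the bHLH activators, Neurod6 is the one most restricted to maturing pyramidal neurons. It stood at 1.51, 3.17, 2.08 and 13.7 CPM in control replicates 1, 2, 5 and 6 and at 30.6, 53.0, 48.9 and 70.7 CPM in morphine replicates 3, 4, 7 and 8. The groups did not overlap, with all morphine values above all control values, and control replicate 6 was 6.09 times the mean of the other control libraries. The means were 5.13 ± 5.78 CPM and 50.8 ± 16.5 CPM (SD, n = 4 each), a log2 fold change of 3.32 (SE 0.60) in the edgeR fit. Without control replicate 6 the log2 fold change was 4.46 (SE 0.33), and without control replicate 5 it was 3.05.

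Neurod2, which acts in parallel with Neurod6 in postmitotic neurons, stood at 3.00, 5.27, 20.5 and 30.4 CPM in control replicates 1, 2, 5 and 6 and at 51.4, 93.1, 72.9 and 89.5 CPM in morphine replicates 3, 4, 7 and 8. The groups did not overlap, and within the control group both female libraries were higher than both male libraries. The group means were 14.8 ± 13.0 CPM and 76.7 ± 19.0 CPM, with a log2 fold change of 2.38 (SE 0.57). Without control replicate 6 it was 2.97 and without control replicate 5 it was 2.57.

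Neurod1, an earlier-acting member of the family that also persists in hippocampal granule cells, had the smallest fold change between the groups. It stood at 11.6, 9.05, 11.9 and 16.1 CPM in control replicates 1, 2, 5 and 6 and at 15.2, 17.0, 16.0 and 17.9 CPM in morphine replicates 3, 4, 7 and 8. Control replicate 6 lay above morphine replicates 3 and 7, so the groups shared part of their range. Its log2 fold change was 0.44 (SE 0.16), 0.58 without control replicate 6 and 0.42 without control replicate 5. The Neurod1 gene overlaps Cerkl on the same strand and the antisense lincRNA Gm26755, and use of strand in counting is not stated in the sources used here, so its counts are uncertain.

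Bhlhe22, the bHLH repressor, stood at 22.4, 19.2, 24.3 and 30.4 CPM in control replicates 1, 2, 5 and 6 and at 47.3, 57.3, 45.6 and 60.1 CPM in morphine replicates 3, 4, 7 and 8. The groups did not overlap, and the lowest morphine library was well above the highest control library. The means were 24.1 ± 4.73 CPM and 52.6 ± 7.18 CPM, with a log2 fold change of 1.13 (SE 0.15), 1.24 without control replicate 6 and 1.12 without control replicate 5. This gene has 1 exon.

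Zfp238, the zinc finger repressor, stood at 162, 168, 207 and 213 CPM in control replicates 1, 2, 5 and 6 and at 339, 408, 385 and 406 CPM in morphine replicates 3, 4, 7 and 8. The spread within each group was small beside the gap between them. The means were 188 ± 26.2 CPM and 385 ± 31.9 CPM, with a log2 fold change of 1.04 (SE 0.12), 1.08 without control replicate 6 and 1.07 without control replicate 5. With 6316 to 19758 counts per library it was the most deeply counted member. Zfp238 has 2 transcript rows with nearly equal counts, and the row with the higher total was used.

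**Figure D1:**
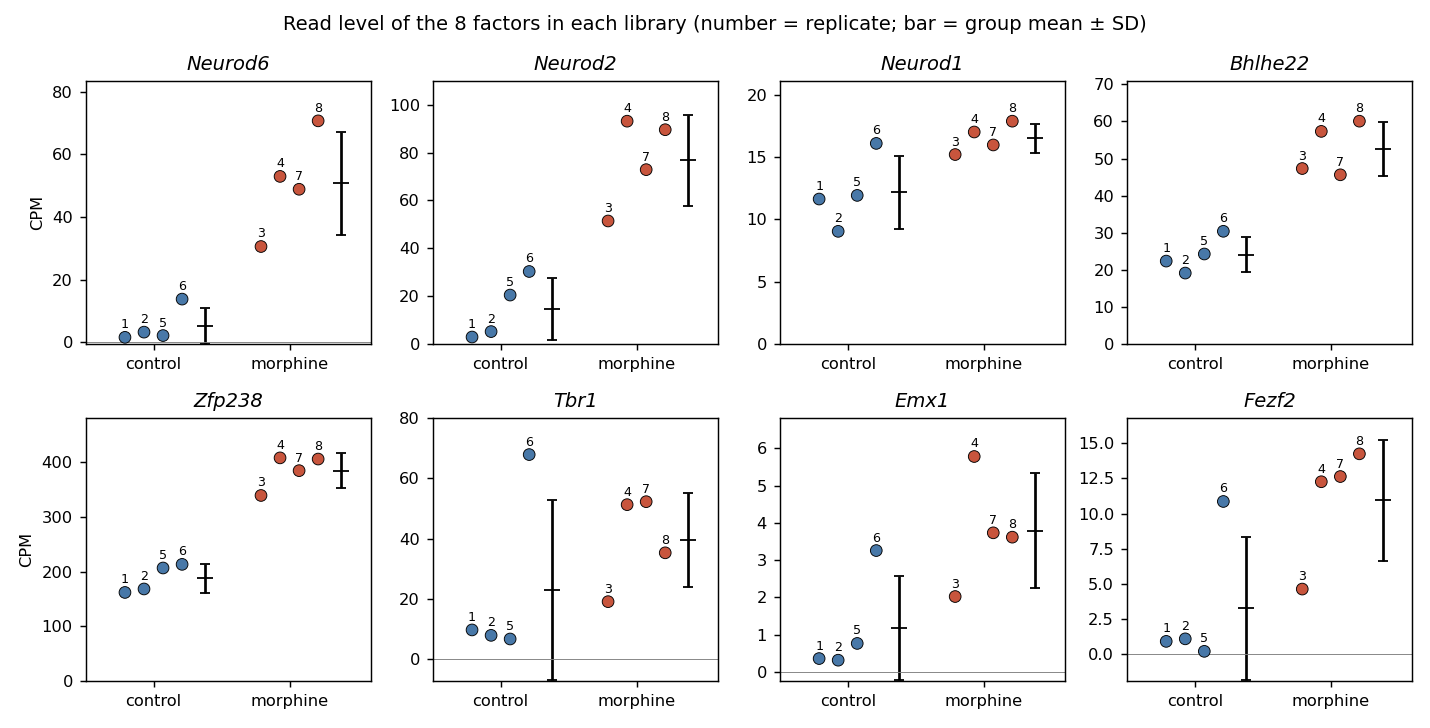
CPM of each of the 8 factors (vertical axis of each panel) in the 4 control and 4 morphine libraries, with the replicate number at each point and the group mean ± SD as a bar. Neurod6, Neurod2, Bhlhe22 and Zfp238 have all morphine points above all control points, while in Neurod1, Tbr1, Emx1 and Fezf2 control replicate 6 lies among or above the morphine libraries.

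Tbr1, the T-box factor, was the only member whose highest library was a control. It stood at 9.72, 7.92, 6.72 and 67.8 CPM in control replicates 1, 2, 5 and 6 and at 19.1, 51.2, 52.2 and 35.3 CPM in morphine replicates 3, 4, 7 and 8. Control replicate 6 was the highest of all 8 libraries and 8.35 times the mean of the other control libraries, whereas the other 3 control libraries lay below every morphine library. The group means were 23.0 ± 29.9 CPM and 39.4 ± 15.6 CPM, and the log2 fold change of 0.78 (SE 0.67) became 2.26 (SE 0.32) without control replicate 6 and 0.46 without control replicate 5.

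Fezf2, the subcortical projection factor, stood at 0.923, 1.10, 0.215 and 10.9 CPM in control replicates 1, 2, 5 and 6 and at 4.64, 12.3, 12.6 and 14.2 CPM in morphine replicates 3, 4, 7 and 8. Control replicate 6 lay above morphine replicate 3 and was 14.5 times the mean of the other control libraries. The lowest value rests on 9 counts in control replicate 5 (95% exact Poisson interval 0.0984 to 0.408 CPM, counting error only). The log2 fold change was 1.75 (SE 0.85) with all libraries, 3.84 (SE 0.52) without control replicate 6 and 1.35 without control replicate 5.

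Emx1, the homeobox factor of the dorsal telencephalon, was the least abundant member, with 0.359, 0.315, 0.765 and 3.26 CPM in control replicates 1, 2, 5 and 6 and 2.02, 5.78, 3.73 and 3.62 CPM in morphine replicates 3, 4, 7 and 8. Control replicate 6 again lay above morphine replicate 3, and the other control libraries lay below every morphine library. The lowest Emx1 values rest on 14 counts each in control replicates 1 and 2. The log2 fold change of 1.70 (SE 0.63) became 2.95 (SE 0.43) without control replicate 6 and 1.54 without control replicate 5.

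The factors differed in how much of their variance lay between the groups. Of the variance in log2 CPM over the 8 libraries, the share between the groups was 92.8% for Zfp238, 88.1% for Bhlhe22, 81.5% for Neurod6 and 68.1% for Neurod2. It was 55.7% for Emx1, 53.6% for Neurod1, 50.7% for Fezf2 and 31.8% for Tbr1. Control replicate 6 lay above its group mean for all 8 members, by 0.20 (log2) for Zfp238, 0.36 for Bhlhe22, 0.43 for Neurod1, 1.60 for Neurod2, 1.98 for Neurod6, 2.05 for Emx1, 2.30 for Tbr1 and 3.02 for Fezf2. Control replicate 5 moved in both directions, with Neurod2 above its group mean by 1.03 and Fezf2 below it (log2 deviation -2.33).

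**Figure D2:**
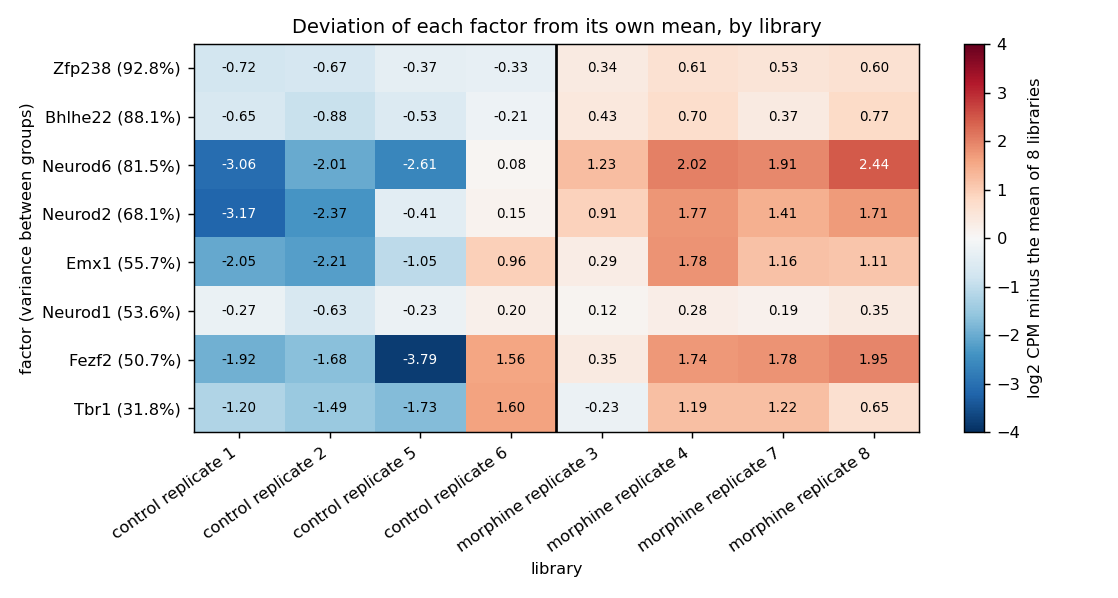
Deviation of log2 CPM from the mean over the 8 libraries, for each factor (rows, ordered by the share of variance between the groups, given in percent) and library (columns, control left of the line and morphine right of it). Tbr1 and Fezf2 in control replicate 6 deviate upwards by 1.60 and 1.56, as far as in morphine libraries, while Zfp238 and Bhlhe22 are below their means in every control library and above them in every morphine library.

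Across all genes, 37 of 18939 (0.195%) passed an adjusted *P* value of 0.05 in edgeR's quasi-likelihood test (called), and 31 (0.164%) were higher in the morphine group. Of the 8 members, 2 were among these, Zfp238 and Bhlhe22. The groups did not overlap, with morphine higher, for 4 of 8 members and for 3.34% of all genes. All 8 log2 fold changes were above 0, with a median of 1.42 against 0.01 over all genes. Because this contrast chose the members, nothing is read from these counts. Other models gave other counts: 4 of 8 members were called by DESeq2 (3.11% of the genes to which it gave an adjusted *P*) and 4 of 8 by edgeR with sex in the model (0.581% of genes), in each case Neurod6, Neurod2, Bhlhe22 and Zfp238, and 3 of 8 by limma-voom (0.121% of genes), which were Neurod6, Bhlhe22 and Zfp238.

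Calls changed with the libraries in the fit, among all genes as among the members. Without control replicate 6, 6 of 8 members were called (0.408% of genes): Neurod6, Bhlhe22, Zfp238, Tbr1, Emx1 and Fezf2. Without both libraries apart on the second component there were also 6 of 8 (0.186% of genes). The log2 fold changes were then 4.48 for Neurod6, 2.09 for Tbr1, 2.96 for Emx1 and 3.77 for Fezf2. Without morphine replicate 7 alone they were 3.32, 0.60, 1.70 and 1.67, close to or below those with all libraries. Without control replicate 1, 0 of 8 members and 0.00531% of genes were called, and without morphine replicate 4 or morphine replicate 8, 0 of 8 members and 0% of genes. The log2 fold change of Bhlhe22 stayed between 1.03 and 1.24 and that of Zfp238 between 0.96 and 1.09 whichever library was left out.

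**Figure D3:**
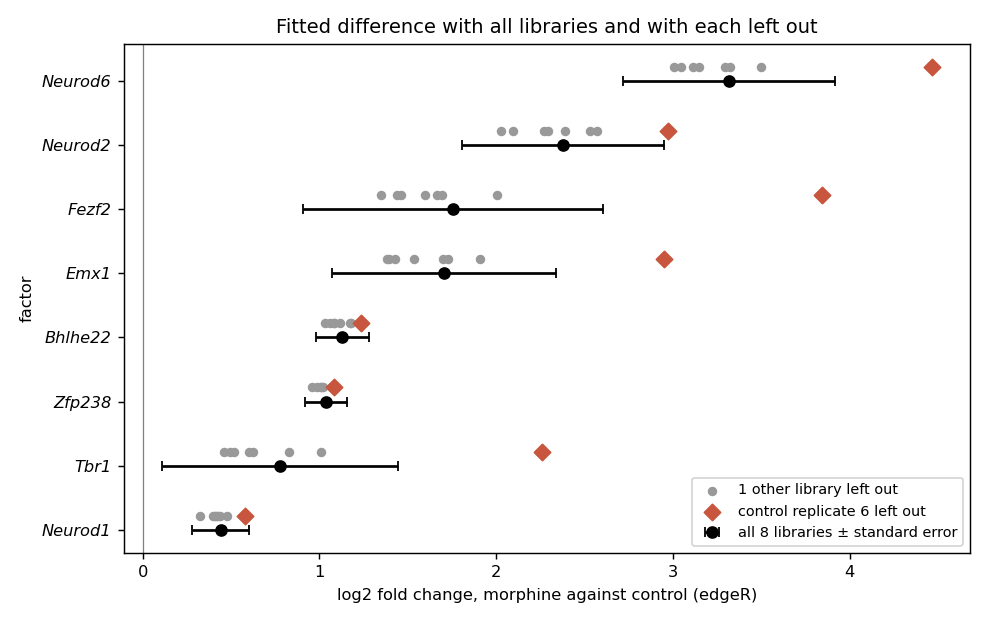
Fitted log2 fold change of each factor, morphine against control, with all 8 libraries (black, bar is 1 standard error), with control replicate 6 left out (diamond) and with each other library left out (grey). The diamond lies far to the right for Neurod6, Fezf2, Emx1 and Tbr1 (4.46, 3.84, 2.95 and 2.26) and close to the black point for Zfp238, Bhlhe22 and Neurod1.

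Within libraries, the members kept different ratios to each other. Zfp238 had 7.02 to 8.78 reads per Bhlhe22 read in the control libraries and 6.76 to 8.44 in the morphine libraries, ranges that overlap. Neurod2 had 1.66 to 2.21 reads per Neurod6 read in control replicates 1, 2 and 6 and 1.27 to 1.76 in the morphine libraries, but 9.86 in control replicate 5. Tbr1 had 2.50 to 6.42 reads per Neurod6 read in the control libraries, control replicate 6 included with 4.94, and 0.499 to 1.07 in the morphine libraries, without overlap. The high library of Tbr1, Fezf2 and Emx1 in the control group thus held fewer Neurod6 reads per Tbr1 read than any morphine library.

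Around their group means, members also moved together to different degrees, described here over 8 libraries that share their depth and composition. Deviations of log2 CPM correlated most for Neurod2 with Zfp238 (Pearson's r = 0.948), Tbr1 with Fezf2 (0.929) and Neurod1 with Bhlhe22 (0.925). They correlated least for Neurod2 with Fezf2 (0.370) and Zfp238 with Fezf2 (0.378). Neurod2 and Zfp238 placed the 8 libraries in the same order, from morphine replicate 4 down to control replicate 1, whereas the Tbr1 order began with control replicate 6.

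The sexes were then compared in a model that also held condition, a contrast that did not choose the members. All 8 members had a higher fitted level in the female libraries, but 0 of 8 were called by edgeR, in which 0.00528% of genes (1 gene, Xist) passed, and 0 of 8 by DESeq2 or limma-voom. At an unadjusted *P* under 0.05 there were 2 of 8 members, against 3.10% of genes. These were Neurod2, with a log2 fold change of 1.33 (SE 0.44), and Neurod6, with 1.07 (SE 0.46), and the adjusted *P* of both was 1.00 in edgeR. For the other 6 the log2 fold change lay between 0.20 (Bhlhe22) and 1.47 (Fezf2). Without control replicate 6 the log2 fold change was 0.29 for Neurod6, 0.05 for Tbr1, -0.01 for Fezf2 and 1.03 for Neurod2. Without control replicate 5, the library with Y-linked counts, it was 1.27 for Neurod2, 1.30 for Neurod6 and 1.75 for Fezf2, with 0 of 8 called.

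The difference between the groups was compared between the sexes with an interaction term. The fitted term was below 0 for all 8 members, that is, a smaller morphine difference in the female libraries, and 0 of 8 members and 0% of genes were called by edgeR. At an unadjusted *P* under 0.05 there were 2 of 8 members against 1.72% of genes. For Neurod2 the term was -2.45 (SE 0.44, edgeR adjusted *P* = 0.996), and its male libraries went from 3.00 and 5.27 CPM to 51.4 and 93.1 CPM and its female libraries from 20.5 and 30.4 CPM to 72.9 and 89.5 CPM. For Emx1 it was -2.65 (SE 0.88, edgeR adjusted *P* = 1.00). DESeq2 called 4 genes (0.0211%), of which 1 was a member, Neurod2 (DESeq2 adjusted *P* = 0.00174), the others being Lct, Anln and Uty, and limma-voom called 0. Uty is 1 of the 4 Y-linked genes given above, of which control replicate 5, labelled female, held 49.5 CPM. The female control libraries on which the interaction terms rest, that of Neurod2 included, are replicates 5 and 6. Without control replicate 6, which leaves 1 female control library that is assumed to vary like the others, the term was above 0 for Neurod6 (0.68), Tbr1 (0.69) and Fezf2 (2.87), and it was -2.16 for Neurod2 and -1.28 for Emx1. Without control replicate 5 it was below 0 for 8 of 8 members, with -2.70 for Neurod2 and -3.35 for Emx1. In both of these fits 0 of 8 members were called by edgeR.

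Other factors of cortical projection neurons had values in both directions. Of 30 such genes, 1 was called, Lmo3, a LIM-only cofactor, at 65.5 ± 6.34 CPM in the control group and 110 ± 10.9 CPM in the morphine group (log2 fold change 0.75, SE 0.11, edgeR adjusted *P* = 0.0227). The median log2 fold change of the list was 0.24 and 19 of 30 were above 0. In all morphine libraries 3 were higher than in all control libraries, as were 3.34% of all genes. Lower without overlap was 1, Cux2, at 130 ± 4.21 and 104 ± 10.2 CPM (-0.32, edgeR adjusted *P* = 0.188), as were 607 of all 18939 genes. Mef2c, a MADS-box factor with the highest mean level of the list, stood at 253 ± 59.2 and 283 ± 102 CPM (log2 fold change 0.16, edgeR adjusted *P* = 0.819). The lowest log2 fold change was that of Rorb, a nuclear receptor of layer 4 and thalamic neurons, with 310 ± 59.1 and 220 ± 51.0 CPM (-0.49, edgeR adjusted *P* = 0.313), and the highest that of Pou3f1, a POU factor of upper-layer and corticospinal neurons, with 9.84 ± 2.15 and 20.0 ± 7.70 CPM (1.02, adjusted *P* = 0.139, edgeR).

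Among 21 bHLH partners and inhibitors of the members, 0 were called by edgeR and 5 had an unadjusted *P* under 0.05, which 12.1% of all genes had, with a median log2 fold change of 0.34. Prdm8, the partner with which Bhlhe22 forms a repressor complex, stood at 6.86 ± 2.77 CPM and 21.5 ± 6.70 CPM without overlap between the groups (log2 fold change 1.65, SE 0.30, edgeR adjusted *P* = 0.0569). Tcf4, an E protein that dimerises with NeuroD factors and had the highest mean level of the list, stood at 143 ± 61.7 and 241 ± 58.5 CPM (0.75, SE 0.26, edgeR adjusted *P* = 0.282). Neurog1 was at 0 in 7 of 8 libraries. Of 16 genes taken as targets of the members, 0 were called and 6 had an unadjusted *P* under 0.05, with a median of 0.37. Slc17a7, the vesicular glutamate transporter of cortical neurons, stood at 121 ± 50.5 and 267 ± 88.2 CPM (1.15, SE 0.29, edgeR adjusted *P* = 0.142), and Gap43, a growth cone protein and the most abundant of these, at 478 ± 51.0 and 385 ± 52.3 CPM (-0.31).

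Markers of cell types that could hold the members were mostly higher in the morphine group too. For telencephalic pyramidal neurons, 15 of 16 markers were measured and 13 had a log2 fold change above 0 (median 0.66). Of these 15, 2 were called, as were 0.195% of all genes, and 0 were at 0 in any library. In edgeR 11 had an unadjusted *P* under 0.05 (12.1% of all genes), and 4 were higher without overlap (3.34% of all genes). The called ones were Itpka, an inositol trisphosphate kinase of dendritic spines, with 15.6 ± 4.54 and 50.8 ± 16.6 CPM (1.70, SE 0.26, edgeR adjusted *P* = 0.0415), and Chn1, a Rac regulator of axons, with 725 ± 61.7 and 1149 ± 116 CPM (0.66, SE 0.11, edgeR adjusted *P* = 0.0478). Their summed level was 2861 to 3591 CPM in the control libraries, highest in control replicate 6, and 3839 to 6092 CPM in the morphine libraries. For dentate granule neurons, 9 of 10 markers were above 0 (median 1.03) and 0 were called. Of the 10, 7 had an unadjusted *P* under 0.05 in edgeR and 5 were higher without overlap. The sum was 1108 to 1394 CPM in the control libraries and 1396 to 1811 CPM in the morphine libraries. Il16 had the largest log2 fold change of that list (2.68) and Rasgrp1 the highest level (772 ± 70.1 and 1033 ± 210 CPM).

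Choroid plexus markers, from the epithelium of the ventricle beside the PVT, were also mostly higher there. Of 13, 12 had a log2 fold change above 0 (median 1.97) and 8 were higher without overlap, as were 3.34% of all genes. By edgeR 0 were called, and 10 had an unadjusted *P* under 0.05, which 12.1% of all genes had. The sum of the 13 markers was 36.1 to 112 CPM in the control libraries, highest in control replicate 6, and 130 to 403 CPM in the morphine libraries. Ttr, the choroid plexus transthyretin gene, stood at 17.0 ± 19.0 and 174 ± 106 CPM, and Kcnj13 was at 0 in 1 library. The part of pyramidal, granule or choroid plexus cells in the values of the members was not tested.

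Thalamic markers had the opposite sign. Of 14, 0 had a log2 fold change above 0 (median -0.25) and 0 were called. In edgeR 4 had an unadjusted *P* under 0.05, and 0 were lower without overlap. The sums were 3772 to 5043 CPM in the control libraries and 2886 to 4604 CPM in the morphine libraries. Gbx2, a thalamic homeobox factor, showed the largest difference, 68.9 ± 9.51 and 42.7 ± 15.3 CPM (-0.69, edgeR adjusted *P* = 0.227). For GABAergic markers 5 of 12 were above 0 (median -0.16) and for medial habenula markers 6 of 9 (median 0.13), with 0 called in either list. The largest log2 fold changes were -0.95 for Dlx1, a GABAergic homeobox factor, and 0.97 for Chat, the acetylcholine synthase, with Gad2 (GABA synthesis) and Calb1 (calcium binding) as the most abundant. Oligodendrocyte markers were above 0 for 8 of 8 (median 0.65) with sums of 124 to 1251 and 586 to 1601 CPM, and astrocyte markers for 7 of 8 (median 0.39) with sums of 279 to 448 and 331 to 419 CPM, again with 0 called. Mal in the former (0.98) and Sox9 in the latter (0.73) differed most, and Mbp and Slc1a2 were the most abundant. Oligodendrocyte markers were also higher in the female libraries for 8 of 8 (median log2 fold change 1.13), as were choroid plexus markers for 13 of 13 (0.53), beside the female values of the members given above, and their part there was not tested.

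**Figure D4:**
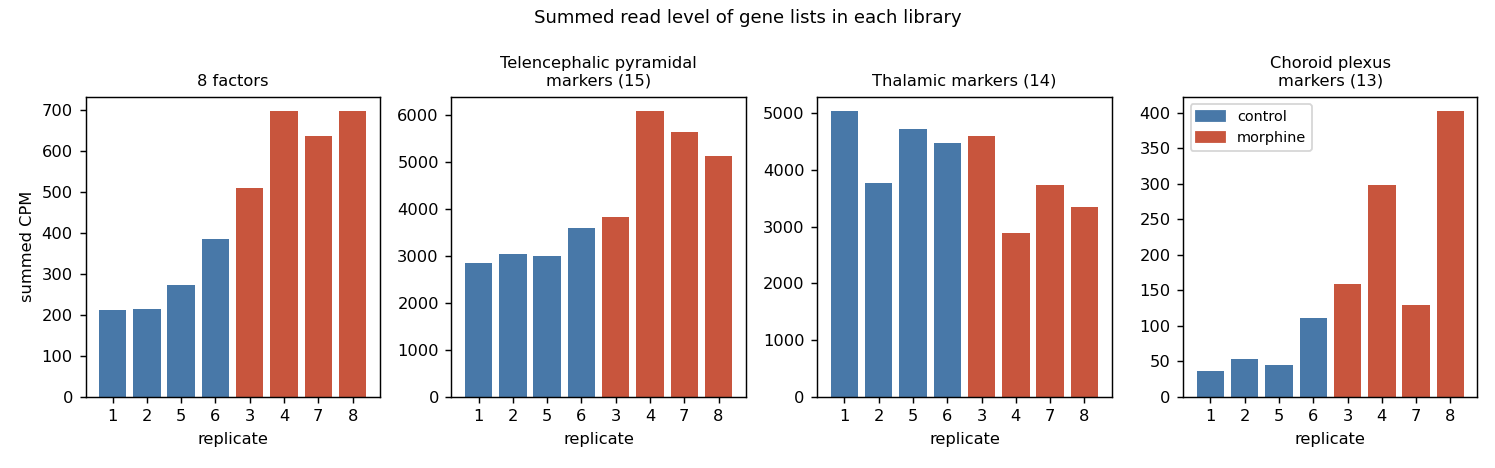
Summed CPM per library of the 8 factors and of the telencephalic pyramidal, thalamic and choroid plexus markers (number of genes in brackets), for control (blue) and morphine (red) replicates. Sums of the 8 factors lie between 211 and 386 CPM in the control group and between 509.7 and 698 CPM in the morphine group. Most of each sum is Zfp238, with 162 to 213 CPM in the control group and 339 to 408 CPM in the morphine group. Control replicate 6 is the highest control library for the factors, the pyramidal and the choroid plexus markers.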

How the data were processed

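The authors deposited raw read counts per RefSeq transcript for 8 TRAP-Seq libraries, and the labels name mm10 and DESeq2. The paper names Salmon and tximport for quantification. Whether the deposited whole-number counts came from these tools, and how strand was used, is not given in the sources used here. Condition, sex and replicate came from the labels, and 0 columns were left without a sample. For each gene the transcript row with the highest total was used. Counts were tested with edgeR 4.0.16 (R 4.3.3; TMM factors, glmQLFit and glmQLFTest) over 18939 genes, with Benjamini-Hochberg adjustment over all of them and a threshold of 0.05. The standard error was taken from the fold change and the F statistic. Log2 CPM used a prior count of 2. For the sexes, condition was kept in the model, and an interaction term was fitted with both. RPKM was computed from GENCODE transcript lengths, and coordinates and promoters came from RefSeq (GRCm38.p6). P values measure the spread between libraries, each a pool of 2 dissections; reads are not independent molecules, so Poisson intervals cover counting error only.

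The members and all gene lists were chosen with earlier results of these data known. Named from each list are the called genes, or otherwise the gene with the largest log2 fold change in either direction and the one with the highest mean CPM. Rorb, Pou3f1, Mef2c, Cux2, Prox1, Neurog1 and the genes called between the sexes or by the interaction were named after their values were seen. The 3 most similar genes of each member were taken from genes of at least 5 CPM by Pearson correlation over 8 libraries. Alternatives were DESeq2 1.42.0, limma-voom 3.58.1, upper-quartile or RLE scaling, a minimum of 10 counts per library, filterByExpr, robust empirical Bayes, sex in the model, the sum over transcripts, and each library left out (for the interaction, added after the data were seen). The test script was checked on simulated data. Figures were drawn with matplotlib 3.10.9. Protein sequences were not used here.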

Additional observations from a re-analysis of the deposited data

Results flagged for a closer look

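Of the 16 sets of 4 values (8 factors in 2 groups), 4 held a library far from the others. In each of these 4 it was control replicate 6. Its gap to the nearest other control library, divided by the range of the group, was above Dixon's 95% critical value for 4 samples. About 1 in 20 independent sets of normal values pass that value, a rate that does not hold for sets sharing the same 8 libraries. In control replicate 6, Neurod6 stood at 13.7 CPM (ratio 0.864), Tbr1 at 67.8 CPM (0.951), Emx1 at 3.26 CPM (0.847) and Fezf2 at 10.9 CPM (0.917). These per-library values are the ones by which the factors are described above, so the comparison restates them and adds no support. On log2 CPM, a scale chosen after the data were seen, the ratio was 0.841 for Tbr1, which still passed, and 0.668 for Neurod6, 0.636 for Emx1 and 0.605 for Fezf2, which did not. On that scale the only other library to pass was morphine replicate 3 for Fezf2 (0.866). The 4 values come from 1 library and are not independent of each other. None of the values of Neurod2, Neurod1, Bhlhe22 or Zfp238, and none of the morphine libraries for any of the 8 factors, passed the same criterion on the CPM scale.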

How the results depend on the processing

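Number of genes called, morphine against control, was 37 in the fit described and 498 with DESeq2, 110 with sex in the model, 23 with limma-voom, 22 with the sum over transcripts, 15 with at least 10 counts in every library and 14 with filterByExpr. It ranged from 0 to 77 with each library left out: 0 without morphine replicate 4 or 8, 1 without control replicate 1, 11 without morphine replicate 7, 20 without control replicate 5, and 77 without control replicate 6 or morphine replicate 3. Of the 8 factors, 2 were called, and 4 with DESeq2, 3 with limma-voom, 4 with sex in the model, 6 without the 2 libraries apart on the second principal component, and 0 to 6 with each library left out. No fold change of a factor between the groups changed its sign under any alternative. Female against male, 1 gene was called, and 26 with DESeq2, 0 with filterByExpr, 0 with at least 10 counts in every library, and 0 (without morphine replicate 3) to 5 (without control replicate 5) with each library left out, with 0 of the 8 factors called throughout; the log2 fold change of Fezf2 ranged from -0.013 (without control replicate 6, a change of sign) to 2.03 (without morphine replicate 4). The interaction called 0 genes and 0 factors with edgeR, 4 genes and 1 factor with DESeq2, and 0 to 5 genes and 0 factors with each library left out (1 gene without control replicate 1, 5 without control replicate 6), and the term of Neurod6, Tbr1 and Fezf2 changed sign without control replicate 6. The cause of these differences was not tested, except that the filters test fewer genes. Fezf2 was dropped by the minimum of 10 counts and received no adjusted *P* value from DESeq2 for morphine against control. Scaling by RLE or upper quartile moved the median of all genes by less than the members' fold changes, to 0.01 and -0.01, and left 8 of 8 factors above 0. No paired analysis was possible because the replicate numbers of the control libraries (1, 2, 5 and 6) and of the morphine libraries (3, 4, 7 and 8) do not overlap. Low counts limit Emx1 (14 counts in 2 libraries) and Fezf2 (9 counts in 1).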

Other observations

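Among 10730 genes with a mean of at least 5 CPM, those whose log2 CPM followed each factor most closely over the 8 libraries are given as a description. Zfp238 was followed by Adcy1, an adenylyl cyclase (Pearson's r = 0.992, mean 356 CPM in the control group and 570 CPM in the morphine group), Kcnj3, a GIRK channel subunit, and Zfp189. Bhlhe22 was followed by Fam107b (0.978), Kcnj3 and Atp7a, so that Kcnj3 appears for both repressors. Neurod6 was followed by Iqgap2 (0.972), Clic6 and Epha7, of which Clic6 is also on the choroid plexus list. Neurod2 was followed by Il16 (0.990), which is on the dentate granule list, and by Zeb2 and Plekha2. Neurod1 was followed by Map4k3 (0.961), Nr4a2 and Atp7a, with Nr4a2 also on the list of other projection neuron factors. Emx1 was followed by Nfib (0.994), a nuclear factor I family member at 56.9 ± 29.3 CPM in the control group and 114 ± 25.1 CPM in the morphine group, and by Rapgefl1 and Rfx3. Tbr1 was followed by Gm11549 (0.994), Nck2 and Dgkz, and Fezf2 by St6galnac5 (0.963), Igfbp4 and Tmem178. All 24 values were between 0.947 and 0.994, and the points share the separation of the 2 groups.

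The number of exons was not used to choose the members. In GENCODE, 5 of 8 counted transcripts had at most 2 exons (Neurod6, Neurod2, Neurod1, Bhlhe22 and Zfp238), against 12.2% of the 18500 genes matched by transcript, whose median was 8 exons. Tbr1 had 6 exons, Fezf2 5 and Emx1 3. No test was made of this difference.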
